A study of Papio anubis with 12 samples.

Results

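Some entries listed as microRNAs (miRNAs) lie inside other small RNAs, and their reads can be pieces of a transfer RNA (tRNA) or of a small nucleolar RNA (snoRNA). The entries described here are those of a deposited miRNA table whose precursor name begins hsa-mir-1260 (tRNA-type) or is hsa-mir-664, hsa-mir-1248 or hsa-mir-1291 (snoRNA-type). They came to 6 mature names from 5 precursors, of 1921 mature names in all: miR-1260a and miR-1260b on the tRNA side, and miR-664-3p, miR-664-5p, miR-1248 and miR-1291 on the snoRNA side. The names are human ones given to baboon reads that matched them. No RNA integrity value was among the labels used here, so these levels stand beside no independent measure of RNA breakdown.

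Small RNA was sequenced from fetal frontal cortex of the baboon Papio anubis, from 12 fetuses, all taken on day 165 of gestation. Mothers of the 6 control fetuses ate freely, and mothers of the 6 maternal nutrient restricted (MNR) fetuses were given 70% of the control intake, set per kilogram. In both diets replicates 1 to 3 are female and replicates 4 to 6 male, and every fetus gave 1 library. The labels name no mother, strain or sequencing batch. The sample numbers in the labels place all controls before all MNR fetuses, so number order and diet cannot be told apart.

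tRNAs carry amino acids to the ribosome and are cut into fragments by nucleases, some under cell stress. H/ACA-box snoRNAs guide the change of uridine to pseudouridine in ribosomal and spliceosomal RNA, and a few are also cut by Dicer into miRNA-sized pieces. In human, the hsa-mir-1260 hairpins resemble leucine tRNA, and hsa-mir-664, hsa-mir-1248 and hsa-mir-1291 overlap H/ACA snoRNAs that are spliced out of introns of host genes. Fragments of both classes can come from processing in living cells or from RNA that broke down after sampling, and small RNA libraries capture either.

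Libraries held 513029 (control replicate 6) to 1898763 (control replicate 3) counted reads, and 1078720 to 1464660 in MNR. Levels are reads per 1000000 counted reads (RPM), and 1 read was worth 0.527 to 1.95 RPM. Control replicate 3 stood apart with 148140 RPM of miR-26a-5p, named after its values were seen, against 31355 to 77613 RPM in the others. Control replicate 6 was the shallowest library and held the highest summed level of the hindbrain miRNAs miR-10a-5p and miR-10b-5p, 7729 RPM against a control median of 1964 RPM. All 5 cortex miRNAs on a marker list (miR-9-5p, miR-124-3p, miR-128, miR-129-5p and miR-138-5p) had reads, with a summed level of 88108 to 114383 RPM in controls and 97895 to 122739 RPM in MNR. The summed level of 3 erythroid miRNAs (miR-451a, miR-486-5p and miR-144-3p) ran from 2151 to 3901 RPM in controls and from 3101 to 5688 RPM in MNR. The liver marker miR-122-5p ran from 1.47 to 9.75 RPM in controls and from 0 to 1.37 RPM in MNR. Of the 19 markers checked, miR-122-5p, the erythroid miR-451a and the cortex miR-129-5p passed the limma test for diet. Of all 481 tested names, 12 (2.49%) passed as higher and 1 (0.208%) as lower in MNR. The MNR levels of miR-122-5p all lay below 1.58 RPM, the level of 3 reads in the deepest library. The part of the marker differences in the fragment levels was not tested.

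The tRNA-type entries were of middling abundance. miR-1260b (MIMAT0015041) averaged 132 RPM over all fetuses and ranked 150th by mean level, and miR-1260a (MIMAT0005911) averaged 119 RPM and ranked 160th. Both were higher in every MNR fetus than in every control. Neither passed the test across all miRNAs as deposited, although both lay close to its threshold.

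miR-1260b stood at 123, 104, 51.1, 106, 94.3 and 125 RPM in control replicates 1 to 6. In MNR replicates 1 to 6 it stood at 145, 132, 171, 160, 161 and 206 RPM. The groups did not overlap, with control replicate 3 far below the other controls and MNR replicate 6 above all other libraries. The means were 101 ± 26.9 RPM (controls) and 163 ± 25.2 RPM (MNR; SD, n = 6 per diet), on 748 and 1219 reads. On the log2(RPM + 1) scale the difference was 0.73 ± 0.20 (SE), with a 95% interval of 0.31 to 1.152 (limma with Benjamini-Hochberg adjustment over 481 tested names, adjusted p = 0.0527, unadjusted p = 0.00197).

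miR-1260a stood at 109, 91.7, 45.8, 98.8, 90.3 and 109 RPM in control replicates 1 to 6. Its MNR values were 134, 117, 154, 151, 144 and 179 RPM. These groups did not overlap either, and the same 2 libraries held the lowest and the highest level. The means were 90.8 ± 23.5 RPM (controls) and 147 ± 20.7 RPM (MNR; SD, n = 6), a log2 difference of 0.73 ± 0.20 (SE; limma, adjusted p = 0.0527). As background, 15 of the 481 tested names, or 3.12%, had every MNR fetus above every control in RPM. Those 15 take in both tRNA-type names.

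**Figure D1:**
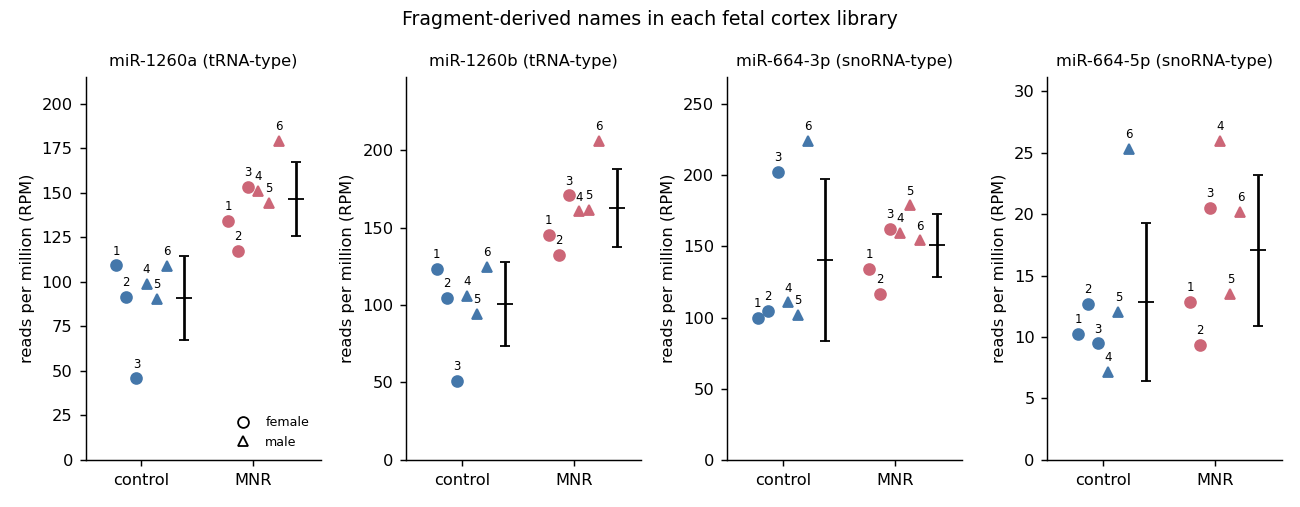
Level of the 4 tested names (y axis, RPM, starting at 0) in each control and MNR library, numbered by replicate, with circles for females and triangles for males; the bars to the right of each group give mean and SD (n = 6). For miR-1260a and miR-1260b all 6 MNR points lie above all 6 controls, while for miR-664-3p control replicates 3 and 6 lie above every MNR fetus.

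The miR-1260 names are not independent measurements. Their mature sequences are near-identical, their levels ordered the fetuses almost alike (Spearman rho 0.99 over 12 fetuses after median-ratio scaling, a description), and the same reads may have been counted under both. miR-1260b exceeded miR-1260a in 12 of 12 libraries, by a ratio of reads of 1.04 to 1.149. That ratio averaged 1.11 ± 0.0397 in controls and 1.11 ± 0.0311 in MNR (SD, n = 6). The agreement of these 2 names therefore counts as 1 observation.

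On the snoRNA side, miR-664 supplied nearly all reads. miR-664-3p (MIMAT0005949) was the most abundant of the 6 names at a mean of 146 RPM, ranked 141st, and miR-664-5p (MIMAT0005948), the other arm of the same hairpin, averaged 14.9 RPM and ranked 305th. In human the hairpin overlaps an H/ACA snoRNA. Neither arm passed the test for diet, and the spread among controls was wider than the gap between the group means.

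miR-664-3p stood at 99.7, 104.9, 202, 111, 102 and 224 RPM in control replicates 1 to 6. In MNR replicates 1 to 6 it stood at 134, 117, 163, 159, 179 and 154 RPM. Control replicates 3 and 6 were the highest of all 12 libraries, so the groups overlapped. The other 4 controls, at 99.7 to 111 RPM, lay below every MNR fetus. That split rests on setting the highest controls aside, and the share of all names that part likewise is not given here. The means were 141 ± 56.8 and 151 ± 22.2 RPM (SD, n = 6), a log2 difference of 0.18 ± 0.21 (SE), with a 95% interval of -0.28 to 0.63 (limma, adjusted p = 0.682). Without control replicates 3 and 6, which were picked out for these levels after they were seen, the log2 difference was 0.52 (limma, adjusted p = 0.0651). Under median-ratio scaling, which sets each library by its median ratio to the average library, it lay below 0 with all 12 fetuses, at -0.043, and it was also below 0 under TMM scaling (trimmed mean of M-values) and with edgeR and DESeq2.

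miR-664-5p rested on 6 to 30 reads per library. It stood at 10.3, 12.7, 9.48, 7.14, 12.04 and 25.3 RPM in control replicates 1 to 6 and at 12.9, 9.39, 20.5, 25.96, 13.5 and 20.2 RPM in MNR replicates 1 to 6. The groups overlapped, and control replicate 6 was again the highest control. The means were 12.8 ± 6.44 and 17.1 ± 6.16 RPM (SD, n = 6), a log2 difference of 0.42 ± 0.30 (SE; limma, adjusted p = 0.44). It was 0.21 under median-ratio scaling, 0.23 under TMM scaling and 0.62 without control replicate 6 (limma, adjusted p = 0.79, 0.764 and 0.162).

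The 3p arm held most miR-664 reads in every library. It took 86.0% of them in MNR replicate 4, the lowest library (172 of 200 reads; Wilson 95% interval 80.5 to 90.1%), and 95.5% in control replicate 3, the highest (384 of 402 reads; 93.0 to 97.1%). The mean was 91.4 ± 2.65% in controls and 90.0 ± 2.72% in MNR (SD, n = 6). Control replicate 6 had a high level of both arms and a 3p share of 89.8%, whereas control replicate 3 was high in the 3p arm and at 9.48 RPM in the 5p arm.

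The other snoRNA-type names were at the limit of detection. miR-1248 had 0 reads in all 12 libraries, which allows up to 1.58 RPM in the deepest and 5.85 RPM in the shallowest library (3 reads), or 0.195 RPM over all 12 together. miR-1291, tied in human to a snoRNA as well, had 1 read in control replicate 2 and 1 in control replicate 4, and 0 in every MNR fetus. No fold is given for either. Of the 6 names, 4 reached the mean of 1 RPM needed for the test, and the snoRNA-type level is in effect that of the miR-664 hairpin.

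As a share of mature miRNA reads, each name counted once, the tRNA-type entries took 0.0330 ± 0.00840% in controls and 0.0532 ± 0.00761% in MNR (SD, n = 6). Controls ran from 0.0170% (replicate 3) to 0.0400% (replicate 6), and MNR from 0.0449% (replicate 2) to 0.0669% (replicate 6), without overlap. The snoRNA-type share was 0.0266 ± 0.0106% in controls and 0.0289 ± 0.00409% in MNR. Controls ran from 0.0187% (replicate 1) to 0.0427% (replicate 6), a range that takes in every MNR value (0.0226 to 0.0339%). Both types together took 0.0596 ± 0.0115% and 0.0820 ± 0.0105%. These sums are over names chosen with earlier results known and carry no test. Reads counted under both miR-1260 names, if any, enter the tRNA-type sum under each.

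**Figure D2:**
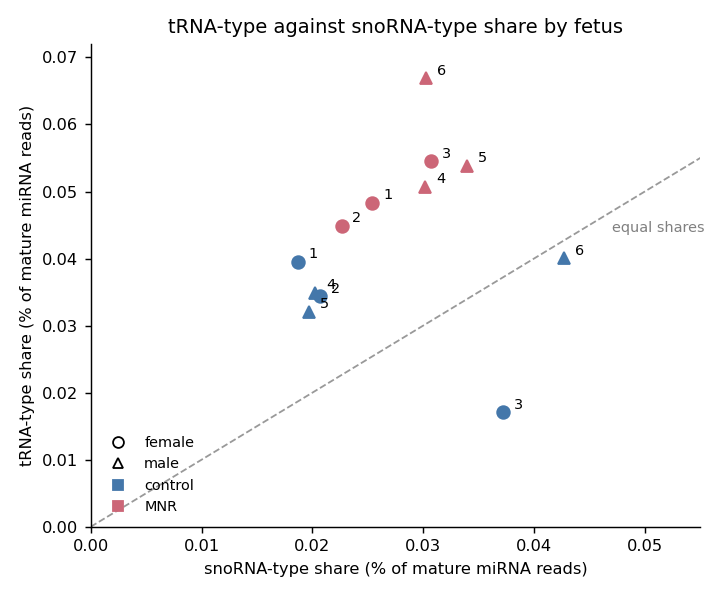
Share of the tRNA-type entries (y axis, % of mature miRNA reads) against that of the snoRNA-type entries (x axis, same unit), 1 numbered point per fetus, blue for controls, red for MNR, circles for females, triangles for males, with a dashed line at equal shares. The 6 MNR fetuses and 4 controls lie above the line, and control replicates 3 and 6 lie below it. Reads counted under both miR-1260 names, if any, enter the tRNA-type share under each, so the height above the line may be overstated.

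The ratio of tRNA-type to snoRNA-type reads does not change with the scaling of a library. It is too high if the miR-1260 names share reads. With miR-1260b alone, the tRNA side exceeded the snoRNA side in control replicate 1 and MNR replicates 2 and 6 only. Those libraries had 168, 169 and 255 miR-1260b reads against 150, 161 and 216 snoRNA-type reads. The ratios below use both miR-1260 names. The ratio was 2.11, 1.66, 0.458, 1.72, 1.62 and 0.938 in control replicates 1 to 6, and 1.90, 1.98, 1.77, 1.68, 1.59 and 2.21 in MNR replicates 1 to 6. The groups overlapped: 10 of the libraries lay between 1.59 and 2.21, and control replicates 3 and 6 lay below them. The means were 1.42 ± 0.605 in controls and 1.86 ± 0.224 in MNR (SD, n = 6). Without control replicates 3 and 6 the difference between the means, 0.437 with all fetuses, was 0.0763, so those 2 libraries carried most of it. The library that was lowest for tRNA-type entries, control replicate 3, was thus the second highest for miR-664-3p, and the types did not rise and fall together across all fetuses. Marker sums of these libraries differed too. Control replicate 3 held the lowest erythroid sum (2151 RPM), the lowest cortex sum (88108 RPM) and, among controls, the highest vessel sum (31095 RPM; miR-143-3p, miR-145-5p and miR-126-3p). These sums are in RPM as deposited. The median-ratio factor of that library was the lowest of all, at -0.23 on the log2 scale, and the sums are not scaled by it. Control replicate 6 held the highest sums for hindbrain, choroid plexus (2111 RPM; miR-204-5p and miR-211-5p) and liver (9.75 RPM of miR-122-5p). The liver value rests on few reads, since 3 reads are worth 5.85 RPM in this shallowest library. Control replicate 6 also held the lowest leukocyte sum (99.4 RPM; miR-223-3p, miR-142-5p and miR-142-3p) and, among controls, the lowest vessel sum (20418 RPM). The part of these differences in the fragment levels was not tested.

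**Figure D3:**
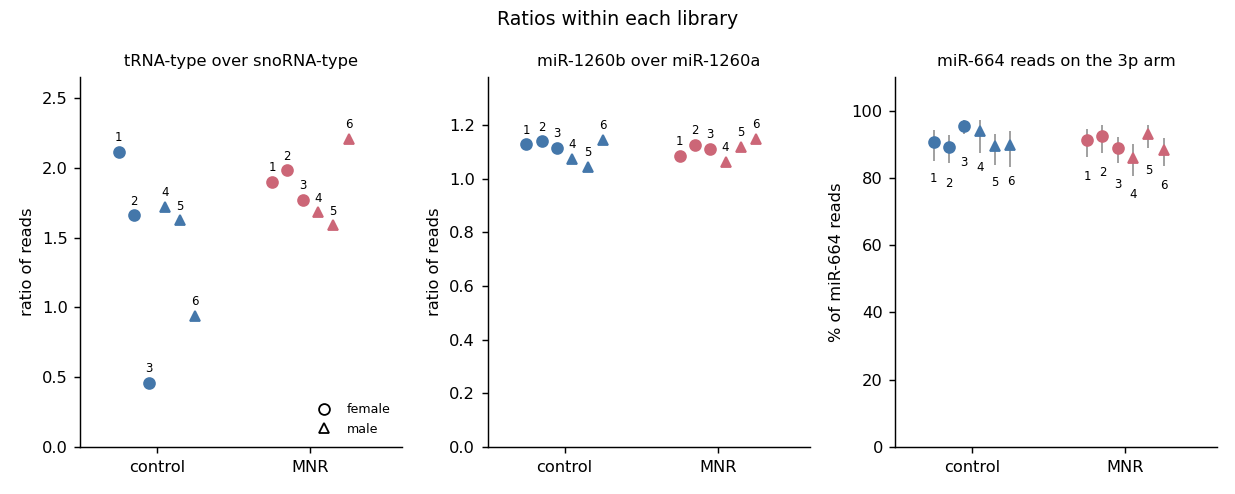
Ratio of tRNA-type to snoRNA-type reads (left), ratio of miR-1260b to miR-1260a reads (middle) and % of miR-664 reads on the 3p arm with Wilson 95% intervals (right) in each library, numbered by replicate, with circles for females and triangles for males. The left ratio drops in control replicates 3 and 6 alone, while the other quantities stay between 1.04 and 1.149 and between 86.0 and 95.5%.

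Set against the whole table, 0 of the 4 tested names passed the limma test for diet, where 12 of 481 names, or 2.49%, were higher and 1, or 0.208%, was lower in MNR. At an unadjusted p under 0.05, 2 of the 4 were higher, both miR-1260 names, which count as 1 observation, against 19.3% of all names. On recovered whole reads, edgeR and DESeq2 each also called 0 of the 4, where they called 3 and 9 of the 481 names. With each, 2 of the 4, the miR-1260 names, were higher at an unadjusted p under 0.05. At that level 7.69% of all names were higher with edgeR and 5.61% with DESeq2. Most miRNAs lay higher in MNR in RPM, with a median log2 difference of 0.23 over the 481 names. The 2 miR-1260 names lay 0.50 above that median, miR-664-5p 0.19 above it and miR-664-3p -0.053 from it.

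Median-ratio scaling, which moved MNR libraries 0.22 down against controls on the log2 scale, left a difference of 0.51 for both miR-1260a (limma, adjusted p = 0.197) and miR-1260b (adjusted p = 0.198). After that scaling miR-1260a ran from 53.6 to 116 in controls and from 125 to 169 in MNR, still without overlap, as 3 of 481 names, or 0.624%, did. miR-1260b ran from 59.8 to 133 in controls and from 132 to 194 in MNR, and the groups met at control replicate 6 and MNR replicate 4. Both miR-1260 names passed when each mature name entered the RPM total once (adjusted p = 0.0463), a setting that called 18 of 529 names, or 3.4%, higher. They passed when names under 10 RPM were left out (adjusted p = 0.0451; 16 of 330, or 4.85%, higher) and with library weights (adjusted p = 0.00838; 41 of 481, or 8.52%). They also passed without control replicate 1, control replicate 6 or MNR replicate 2 (limma, adjusted p = 0.0337 to 0.0395), where 4.57%, 3.53% and 3.74% of all names were higher. In each of these settings more names were called higher than the 12 as deposited. With any other single fetus left out neither passed (limma, adjusted p up to 0.108). Without control replicate 3, the lowest library for both, the difference fell from 0.73 to 0.54 for miR-1260a and 0.55 for miR-1260b. There the miR-1260 names had adjusted p = 0.0683 and 0.0702 (limma). Over all 25 alternatives their adjusted p ran from 0.00838 to 0.198.

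**Figure D4:**
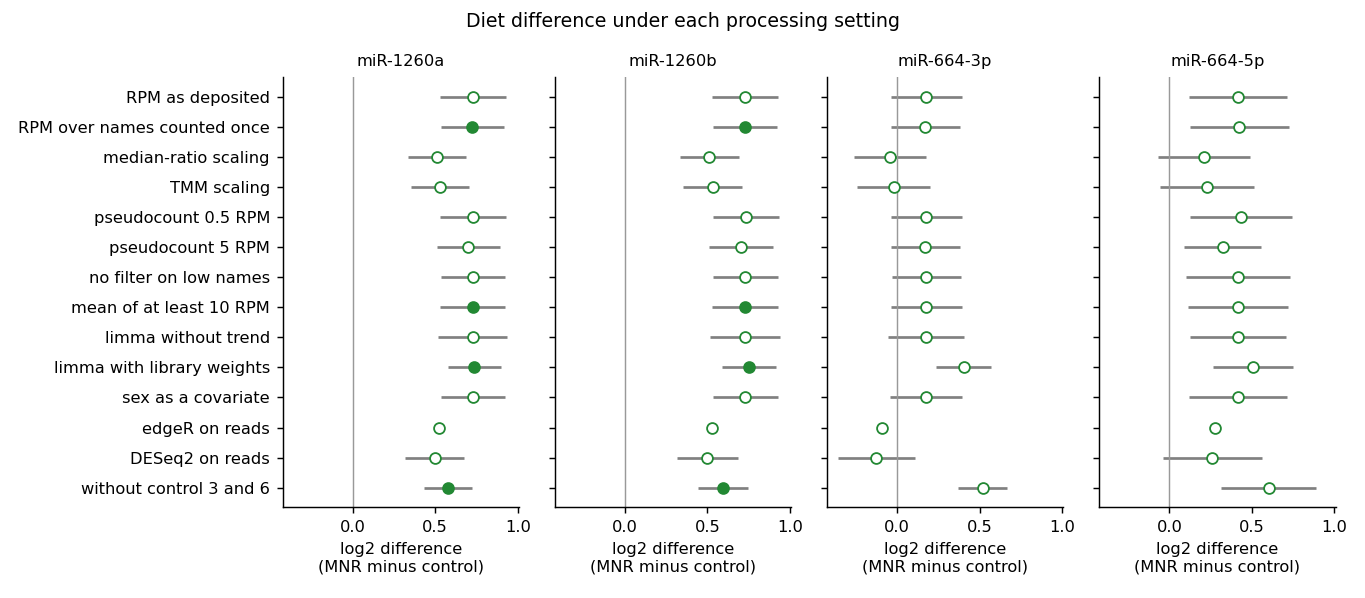
Log2 difference between MNR and control (x axis) of the 4 tested names under each processing setting (y axis); bars are SE, not available for edgeR, and filled points have an adjusted p under 0.05. The miR-1260 names stay between 0.50 and 0.75 and change sides of the threshold, while miR-664-3p lies on both sides of 0.

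**Figure D5:**
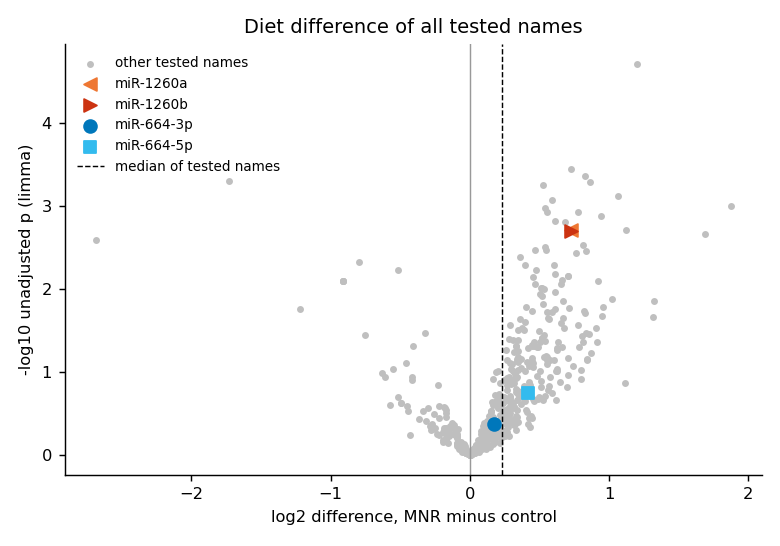
Log2 difference between MNR and control (x axis) and -log10 unadjusted limma p (y axis) of all 481 tested names, with the 4 fragment-derived names in colour and a dashed line at the median of all names, 0.23. miR-1260a and miR-1260b overlie each other at 0.73, and miR-664-3p sits next to the median.

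Sex was the other labelled factor. In females miR-1260b averaged 92.9 ± 37.4 RPM on the control diet against 149 ± 19.5 RPM in MNR, and in males 108 ± 15.4 against 176 ± 26.1 RPM (SD, n = 3 each). Its log2 differences were 0.77 in females and 0.69 in males (limma, adjusted p = 0.438 and 0.267). Without control replicate 3 alone the female difference was 0.39, and that of miR-1260a went from 0.79 to 0.42. Within each sex the MNR and control values of both miR-1260 names did not overlap, as was so for 14.8% of all names in females and 19.3% in males. For the miR-1260 names this follows from the separation over all fetuses and adds nothing to it. For miR-664-3p the means were 136 ± 57.7 (control) and 138 ± 23.1 RPM (MNR) in females, and 145 ± 68.3 and 164 ± 13.0 RPM in males (SD, n = 3).

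In limma, 0 of the 4 names passed in females (background 0% of all names), 0 in males (1.66%), 0 for the difference between sexes (0%) and 0 for sex itself (0%). At an unadjusted p under 0.05, 2 of the 4, the miR-1260 names (1 observation), were higher in MNR within females and 2 within males. Of all 481 names, 49 (10.2%) were so in females and 63 (13.1%) in males. Without control replicate 3 the 2 in females became 0, with 32 of all names higher. Without MNR replicate 3 they became 1, with 27 of all names higher. The 2 in males became 0 under median-ratio or TMM scaling, with 26 and 33 of all names higher. They were also 0 without control replicate 4, control replicate 5 or MNR replicate 6, with 49, 58 and 64 of all names higher. Without control replicate 6 it was 3 of the 4, with miR-664-5p, and 64 of all names were higher. At that level 0 differed between sexes in their diet effect (4.99% of all names) and 0 by sex (3.53%). The difference between the sexes in the diet effect was -0.07 for miR-1260b, with a 95% interval of -0.93 to 0.79, wide in both directions with 3 fetuses per cell. Its sign turned without control replicate 3 (0.31). Averaged over diets, males minus females was 0.27 for miR-1260b and 0.17 for miR-664-3p on the log2 scale (limma, adjusted p = 0.987 for each). Without control replicate 3 the sex difference of miR-1260b was 0.078.

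The authors' deposited table carries its own unadjusted p-values for diet. The authors' deposited p-values for all fetuses were 0.00142 for miR-1260a and 0.00207 for miR-1260b, the 9th and 12th smallest of all names, and 0.685 and 0.272 for miR-664-3p and miR-664-5p. Within females the authors' deposited p-values were 0.0710 for miR-1260a and 0.0810 for miR-1260b, and within males they were 0.00806 and 0.0181.

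Other entries that overlap a tRNA, a snoRNA or another small RNA in human were scarce. Of 15 such precursors on a list, 7 were in the table with 9 mature names, of which 7 had reads in these libraries and 2 were tested. miR-720, which lies in a threonine tRNA in human, ran from 1.47 to 6.63 RPM in controls and from 3.91 to 8.03 RPM in MNR, on 30 and 41 reads. Its means were 3.84 ± 2.00 and 5.49 ± 1.55 RPM (SD, n = 6; log2 difference 0.51, limma, adjusted p = 0.355), with 4 of 6 MNR fetuses above the control median. The snoRNA-derived miR-3607-3p had 13 reads in controls and 14 in MNR, 1.37 ± 1.36 and 1.92 ± 1.57 RPM (log2 difference 0.33, limma, adjusted p = 0.73).

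The remaining ones with reads, miR-1280, miR-3607-5p, miR-3651, miR-3653 and miR-1246, had 1 to 3 reads over all 12 libraries each. All 7 together took 0.000951 ± 0.000476% of mature miRNA reads in controls and 0.00142 ± 0.000477% in MNR, far below either miR-1260 name. The 2 tested ones, miR-720 and miR-3607-3p, had 71 and 27 reads over all libraries and a median log2 difference of 0.42. The median was 0.73 for the tRNA-type names, which count as 1 observation, 0.30 for the snoRNA-type names and 0.23 for all 481 tested names. For reference, the median was 0.55 for 3 tested mirtrons (short introns spliced out as miRNA precursors) and 0.61 for 5 tested miRNAs matured without Drosha or Dicer. After median-ratio scaling, which takes out most of the shift of all names, the medians were 0.51 (tRNA-type), 0.083 (snoRNA-type), 0.29 (the other fragment entries), 0.34 (mirtrons) and 0.39 (without Drosha or Dicer). The median of all tested names was then 0.032.

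After median-ratio scaling, the names outside the set whose levels ordered the 12 fetuses most like miR-1260b were miR-320a (Spearman rho 0.89), let-7i-5p (0.81) and miR-125a-5p (0.81). For miR-1260a they were miR-320a (0.84), miR-125a-5p (0.83) and miR-185-5p (0.83). The control mean of miR-320a was 536 ± 131 RPM and its MNR mean 801 ± 90.2 RPM (SD, n = 6). For miR-664-3p they were miR-219-5p (0.84), miR-326 (0.81) and miR-324-5p (0.80), and for miR-664-5p they were miR-500a-5p (0.85), miR-154-3p (0.80) and miR-3200-3p (0.76). The 2 arms of miR-664 had a rho of 0.47 with each other, and miR-664-3p one of 0.39 with miR-1260b. The Pearson correlations of the same pairs were 0.42 and -0.27, so the sign of the second depended on the measure. These are descriptions over 12 libraries of 2 diets, picked as the highest of 481 names, and the low levels of miR-664-5p, miR-500a-5p and miR-219-5p make their ranks coarse.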

How the data were processed

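The data are 1 table with 2234 entries, each pairing a human mature miRNA name with a precursor. The authors deposited normalised levels per fetus in reads per 1000000 (RPM), per the file headers and the column sums. The authors also deposited 1 pooled count of reads for each entry, and p-values without adjustment for 3 diet comparisons. RNA was extracted with a column kit and libraries were made with a small RNA kit, per the labels' protocols. Per the submitters' processing notes the build hg18 was involved, in no stated role; the sources used here do not name aligner or counter. No sequence or coordinate was used here.

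The RPM steps gave back whole reads: 100% of non-zero values matched an integer number of reads to within 0.0051 RPM. Wilson intervals and floors (3 reads) cover counting error only; the intervals of log2 differences come from the spread between fetuses. Reads of a mature name with several precursors sit in several entries, so 38.5 to 44.3% of summed reads were repeats; the entry with most reads was kept per name, and the 6 names described had 1 entry each. Every pair of libraries differed beyond sampling noise (chi-square per degree of freedom at least 24.7).

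A limma 3.58.1 fit with trend used log2(RPM + 1) of the 481 names with a mean of at least 1 RPM, with diet alone or with 4 diet by sex cells of 3 fetuses; the threshold was an adjusted p under 0.05. The scale understates changes of low names. edgeR 4.0.16 (quasi-likelihood) and DESeq2 1.42.0 were run on recovered reads as alternatives, beside other scalings, filters and pseudocounts and each fetus left out. Replicate numbers follow record order and pair no fetuses. The labels do not say whether fetuses share a mother, so p-values measure the spread between these samples. The names described and the lists were chosen with earlier results of these data known. Named beside them are the 3 other tested names of highest Spearman rho per tested name after median-ratio scaling, and the entries of the listed tRNA, snoRNA and other small RNA precursors.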

Additional observations from a re-analysis of the deposited data

Results flagged for a closer look

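Control replicate 3 lay far from the other controls for miR-1260a, at 45.8 RPM, and for the tRNA-type share, at 0.0170%. Control replicate 6 lay far from the other controls for miR-664-5p, at 25.3 RPM on 13 reads, and for the share of both types together, at 0.0827%. In all, 22 groups of 6 libraries were checked in this way and 4 held such a library, where chance alone flags about 1 in 20; several of the measures share reads. miR-1248, with 0 reads in the 12 libraries, had 8 reads in the authors' deposited pooled read count that came from other libraries.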

How the results depend on the processing

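The count of tested names past the threshold for diet, 0 of 4 as deposited, was 2 (both miR-1260 names) with RPM over names counted once, with names under 10 RPM left out, with library weights, and without control replicates 3 and 6 together, a choice made after seeing the data; with each fetus left out it ran from 0 to 2, at 2 without control replicate 1, control replicate 6 or MNR replicate 2. Calls over all names moved too: 21 without control replicates 3 and 6, and 26, 18 and 19 without those 3 fetuses in turn. Counts over all names, 13 for diet, ran from 0 without the trend to 44 with library weights, and were 3 under median-ratio or TMM scaling, 3 with edgeR, 9 with DESeq2, 1 with no filter or a pseudocount of 5 RPM, 19 with names counted once, 16 with names under 10 RPM left out, 7 with sex as a covariate and 1 to 26 with a fetus left out. The miR-1260 differences kept their direction in all 25 alternatives each (0.50 to 0.79 for miR-1260a, 0.50 to 0.80 for miR-1260b, adjusted p 0.00838 to 0.198).

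miR-664-3p turned below 0 under median-ratio scaling (-0.043), TMM scaling (-0.022), edgeR (-0.095) and DESeq2 (-0.13), and within females under median-ratio scaling (-0.10), TMM scaling (-0.095) and with single fetuses left out (-0.094 to 0.41). The difference between sexes turned with library weights (0.060 for miR-1260a, 0.17 for miR-1260b), without control replicates 3 and 6 (0.31 and 0.41), and with single fetuses left out, which gave -0.37 to 0.24 for miR-1260a, -0.32 to 0.31 for miR-1260b, -0.15 to 0.54 for miR-664-3p and -0.18 to 0.66 for miR-664-5p. For sex, miR-664-3p ran from -0.0059 to 0.34 with a fetus left out.

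The gap in tRNA-type share, 0.0202 percentage points, was 0.0118 over all deposited entries, whose total is larger, and 0.0106 with miR-1260b alone, a choice made after seeing the data. The gap in the tRNA-type to snoRNA-type ratio was 3.51 without miR-664-3p, which leaves few snoRNA-type reads. With a fetus left out the gaps ran from 0.0170 to 0.0219 (tRNA-type share), 0.000723 to 0.00552 (snoRNA-type share) and 0.245 to 0.576 (ratio). The cause of the other changes was not tested. No paired analysis was possible because replicate numbers follow record order. Depth limits miR-1248, miR-1291 and miR-664-5p.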

Other observations

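The authors' deposited pooled read count exceeds the sum of the 12 libraries: the 12 held 15411512 of 91107548 reads, or 16.9%, and which libraries gave the other 75696036 is not stated. How many of all names were relatively more frequent in the 12 cortex libraries than among those other reads is not given here. The levels of the fragment-derived names therefore stand without a background. miR-1291 had 2 reads in the 12 libraries and 4 in the remainder, and miR-1248 had 0 and 8 reads. miR-664-3p stood at 143 RPM in the 12 libraries pooled and 64.8 RPM in the remainder (2199 and 4906 reads), miR-664-5p at 14.2 and 5.54 RPM, miR-1260b at 128 and 66.6 RPM, and miR-1260a at 115 and 70.0 RPM. miR-1260b exceeded miR-1260a in each of the 12 libraries (pooled ratio 1.11) but lay below it in the remaining reads (5042 against 5297, ratio 0.952). The 3p arm held 92.1% of the remaining miR-664 reads. These values have no replicates and no test, and tissue and preparation of the other libraries are not known here.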
